A study of Mus musculus with 6 samples.

Results

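The genes described here are 8 core components of the Hedgehog pathway, picked by symbol from the table of read counts: the ligands Shh and Ihh, the receptor Ptch1, the decoy receptor Hhip, the signal transducer Smo and the transcription factors Gli1, Gli2 and Gli3. All 8 were in the table of 34714 genes, and all 8 were among the 18927 genes tested. The RNA came from kidneys of male C57BL/6 mice, 8 weeks old, whose left ureter had been tied (unilateral ureteral obstruction), and was sequenced from tissue collected at day 10 after surgery. One group held 3 libraries from mice that lack the microRNA gene Mir92b in the whole body (miR-92b-/-, called knockout here), not in a single kidney cell type, and the other held 3 libraries from wild-type C57BL/6J mice. Both groups had the operation, and sham or contralateral kidneys were not analysed here. One sentence of the treatment protocol calls the ligated kidneys controls without fibrosis, while the treatment label and the library names give obstruction. Whether the replicates came from separate animals is not in the labels, so the p-values measure only the spread between these libraries, which may be technical.

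Hedgehog ligands are secreted proteins that bind Ptch1 on the receiving cell. Binding lifts the block that Ptch1 places on Smo, and Smo, acting in the primary cilium, then shifts the Gli proteins toward their activating forms. Gli2 and Gli3 are the factors that first receive the signal, Gli3 acting largely as a repressor when ligand is absent, whereas Gli1, Ptch1 and Hhip are themselves transcribed in response to it and serve as readouts. In the kidney the ligands come from epithelial cells, and Gli1 marks perivascular mesenchymal cells that contribute to the myofibroblasts of the scarred organ.

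The libraries held 38738204 to 51932509 counts each. The table has 0 rows for Mir92b, so these counts give no check of the knockout. Markers of tubule injury (Havcr1 and Lcn2 together) summed to 1313 to 1591 CPM in the knockout and to 1005 to 1737 CPM in the wild type, where CPM is the count relative to the TMM-scaled library size. The defining markers of proximal tubule, collecting duct, endothelium, podocytes, fibroblasts and macrophages were all detected. Skeletal muscle markers (Myh4, Myh1, Acta1 and Ckm) summed to 0.258 to 0.456 CPM in the knockout and to 3.89 to 4.16 CPM in the wild type. These are bulk samples, in which fewer cells of a type and less RNA per cell cannot be told apart.

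The deleted microRNA gene makes a mature strand, miR-92b-3p, that pairs with its targets through its seed. Its sequence is shown beside those of relatives that are made from other genes and carry the same seed, and of the opposite strand miR-92b-5p, which the deletion also removes and whose seed differs. Sequences are from RefSeq (GRCm38.p6), written 5′ to 3′, with the seed (bases 2 to 8) in capitals.
miR-92b-3p: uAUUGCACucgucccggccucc
miR-92a-3p: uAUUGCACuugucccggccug
miR-25-3p: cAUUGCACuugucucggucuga
miR-92b-5p: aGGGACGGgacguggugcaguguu
miR-32-5p, miR-363-3p and miR-367-3p share the capital letters of miR-92b-3p as well.

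Matches to the seed of miR-92b-3p were searched on the sense strand of the longest annotated 3' UTR of each gene (GENCODE M21, GRCm38). The longest match, the 8mer GTGCAATA, was in 0 of the 8 Hedgehog genes and in 2.65% of the 15384 tested genes with a 3' UTR. Hhip, whose 3' UTR of 6480 nt was the longest of the 8, held 1 match to the first 7 bases of that motif (GTGCAAT), a type present in 4.95% of tested genes, and 1 match to the core TGCAAT alone. Gli3 held 1 match to the core alone, a type found in 15.8% of tested genes. Any match of 7 or 8 bases, the last 7 bases of the motif included, was present in 13.4% of tested genes. Counting the core alone as well, the share was 25.3%. Each match was classed by the longest type it belonged to, so a short motif inside a longer one was not counted again. The Hhip sites lie at chr8:79971915-79971921 and chr8:79970448-79970453 (minus strand) and the Gli3 site at chr13:15729485-15729490 (plus strand). They are shown with their surroundings in 30 bases, the match in capitals.
Hhip, 7-base match: agggttttgaaatgttcttGTGCAATgtag
Hhip, core match: ggcccaacactgacaaatctTGCAATgagt
Gli3, core match: gagccacgggttttgattctTGCAATgtat
Shh, Ihh, Ptch1, Smo, Gli1 and Gli2 held 0 matches of any of these types, and the 8mer for miR-92b-5p (CCGTCCCA), its first or last 7 bases and its core were in 0 of the 8. A match is a description of the letters, and no binding was measured.

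Per kilobase of annotated exon, Smo stood highest of the 8 genes and Hhip lowest. Averaged over the 6 libraries, Smo was at 17.3 ± 2.72 CPM per kb (SD, n = 6), Ihh at 12.7 ± 4.91, Ptch1 at 2.64 ± 0.425 and Gli1 at 1.63 ± 0.413 CPM per kb. Below them came Shh at 0.825 ± 0.565 CPM per kb, Gli3 at 0.728 ± 0.229, Gli2 at 0.188 ± 0.0989 and Hhip at 0.133 ± 0.0886 CPM per kb. The ranges of neighbours over the 6 libraries were apart at 2 of the 7 steps, between Ihh and Ptch1 and between Gli3 and Gli2, and overlapped at the others. Within each library the order held at those 2 steps and also between Gli1 and Shh. Smo lay at percentile 79.7 and Ihh at percentile 71.7 of tested genes by level per length, whereas Gli2 and Hhip lay at percentiles 6.4 and 4.37. With the longest transcript in place of all exons, Gli3 and Shh exchanged places and the other 6 kept theirs. Among the ligands, the transcript of Ihh exceeded that of Shh in every library, by a ratio per length of 39.5, 20.9 and 6.92 in the knockout libraries and of 10.1, 8.69 and 56.7 in the wild-type libraries.

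**Figure D1:**
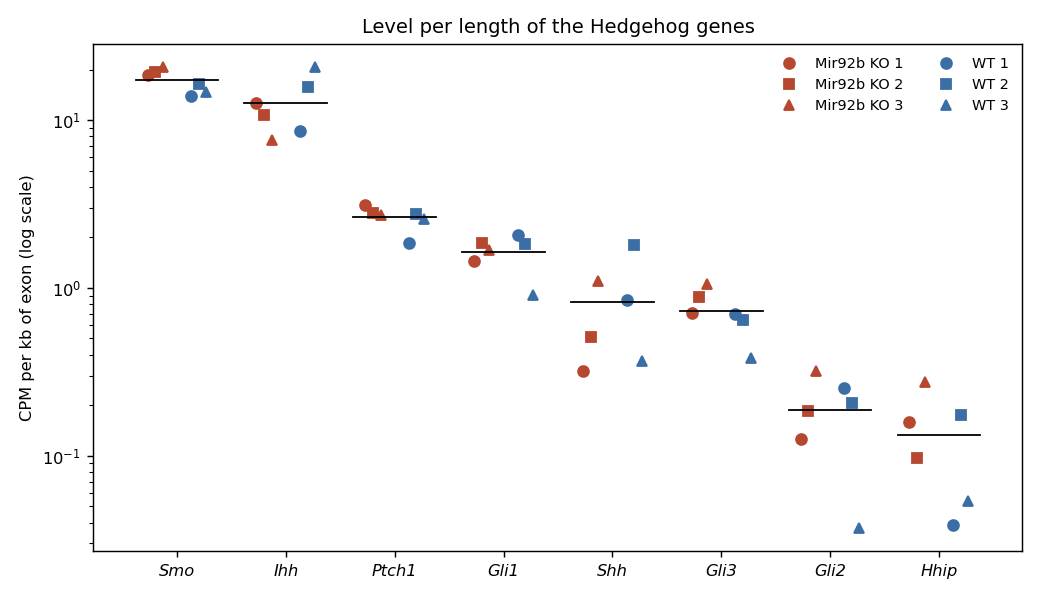
Level of the 8 Hedgehog genes in CPM per kb of exon on a log axis, with knockout libraries (red) left of wild-type libraries (blue) and the mean of all 6 as a line. Smo and Ihh stand above the other genes in every library, and Gli2 and Hhip fall lowest.

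Knockout and wild-type libraries were compared to see how transcripts of the pathway differ when the microRNA is missing. By edgeR's quasi-likelihood F test, fitted on all genes and adjusted by the Benjamini-Hochberg method, 0 of the 8 Hedgehog genes differed at an adjusted p under 0.05, as did 0 of all 18927 genes tested (0%). At an unadjusted p under 0.05, 1 of the 8 (Smo) was higher in the knockout and 0 were lower, beside 4.38% of all tested genes on the higher side and 3.52% on the lower side. The knockout libraries lay above every wild-type library for 2 of the 8 (Smo and Gli3) and below every wild-type library for 0 of the 8, beside 8.95% and 7.2% of all tested genes. DESeq2 called 0 of the 8 and 0.328% of all genes, and limma-voom called 0 of the 8 and 3 genes in all (0.0159%). At an unadjusted p under 0.05, DESeq2 had 2 of the 8 higher (Smo and Gli3) and 0 lower, beside 4.62% and 3.77% of all genes. Limma-voom had the same 2 higher and 2 lower (Shh and Ihh), beside 7.32% and 6.72% of all genes. Fold changes are knockout over wild type on the log2 scale, from 3 libraries in each group.

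Shh (chromosome 5, 28456815 to 28467256, minus strand; this and the following positions are GENCODE M21 gene bounds on GRCm38) encodes the ligand best known from embryonic patterning. Its counts were low, at 40 to 157 per library in the knockout and 49 to 254 in the wild type. Shh measured 0.912, 1.46 and 3.12 CPM in knockout libraries 1 to 3 and 2.42, 5.14 and 1.04 CPM in wild-type libraries 1 to 3. The groups overlapped widely, with the highest and the second highest value in opposite groups. Its log2 fold change was -0.65 ± 0.64 (SE), with a 95% interval of -2.12 to 0.83 and an edgeR adjusted p of 0.751. The value depended on single libraries: it was 0.086 without wild-type replicate 2, which held the highest value, and -1.28 without knockout replicate 3. Leaving out both libraries numbered 3 gave -1.67. There the unadjusted edgeR p was 0.0099 and the adjusted p 0.525. With limma-voom and quality weights the value was -1.45 (unadjusted p = 0.024, adjusted p = 0.314). A fraction of 15.7% of the annotated Shh exon bases is also covered by an antisense transcript, 9530036O11Rik, to which the table gives 19 counts over all libraries. The antisense gene Gm26894, which is not among the counted genes, covers 12.7% of them.

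Ihh (chromosome 1, 74945315 to 74951672, minus strand), a ligand named for its role in cartilage and bone and made in adult kidney by tubule cells, was the more abundant ligand. Ihh was at 38.6, 32.7 and 23.1 CPM in the knockout and at 26.3, 47.8 and 63.2 CPM in the wild type. Wild-type replicate 1 lay inside the knockout range and the other 2 wild-type libraries lay above it. On the log2 scale the knockout stood at -0.54 ± 0.32 relative to the wild type (SE; interval -1.29 to 0.21; edgeR adjusted p = 0.649). The difference was -0.23 without wild-type replicate 3, -0.82 without wild-type replicate 1 and -0.054 without either library numbered 3.

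Ptch1 (chromosome 13, 63508328 to 63573598, minus strand), the receptor and a transcriptional readout, measured 44.2, 39.9 and 38.7 CPM in the knockout and 26.3, 39.2 and 36.5 CPM in the wild type. The low value of wild-type replicate 1 set most of the distance between the groups, and the highest wild-type library reached into the knockout range. Its log2 fold change was 0.27 ± 0.17 (SE; interval -0.13 to 0.66; edgeR adjusted p = 0.658), and it was 0.11 without wild-type replicate 1. Ptch1 has the longest transcript of the 8 (10383 nt), and with the trend of each library on transcript length removed its difference was 0.073.

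Hhip (chromosome 8, 79965851 to 80058006, minus strand), a membrane protein that binds the ligands and keeps them from Ptch1, had the largest positive difference of the 8 and the fewest counts summed over the libraries (347, beside 364 for Gli2), with 15 to 126 in a library. Hhip stood at 1.44, 0.880 and 2.50 CPM in the knockout and at 0.353, 1.60 and 0.489 CPM in the wild type. Wild-type replicate 2 lay above knockout replicates 1 and 2. For Hhip the log2 fold change was 0.97 ± 0.63 (SE; interval -0.48 to 2.43; edgeR adjusted p = 0.661). It was 1.93 without wild-type replicate 2 and 0.49 without knockout replicate 3, and limma-voom with quality weights placed it at -0.058. Hhip is also the gene with the 7-base seed match printed above, and a link between that match and this difference was not tested.

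Smo (chromosome 6, 29735503 to 29761365, plus strand), the transducer that Ptch1 holds in check, varied least of the 8 between libraries. Smo measured 104, 109 and 116 CPM in the knockout and 78.0, 91.8 and 82.5 CPM in the wild type, so that all knockout libraries lay above all wild-type libraries. The means were 110 ± 5.85 CPM in the knockout and 84.1 ± 7.03 CPM in the wild type (SD, n = 3 each), or 1.31-fold. In log2 terms this is 0.39 ± 0.13 (SE), with an unadjusted edgeR p of 0.0158 and an adjusted p of 0.627, which does not pass. The 95% interval, which is not adjusted for the number of genes, was 0.095 to 0.68. Over the 17 alternatives run the difference ran between 0.29 and 0.46, and the smallest adjusted p was 0.299, with limma-voom.

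Gli1 (chromosome 10, 127329882 to 127341974, minus strand), the readout that also marks perivascular mesenchymal cells, had nearly equal group means. Gli1 was at 7.23, 9.25 and 8.36 CPM in the knockout and at 10.4, 9.16 and 4.53 CPM in the wild type. The wild-type libraries spanned the knockout range on both sides, and wild-type replicate 3 was the lowest of all. The means were 8.28 ± 1.01 CPM in the knockout and 8.03 ± 3.09 CPM in the wild type (SD, n = 3 each). Between them the log2 fold change was 0.045 ± 0.32 (SE; edgeR adjusted p = 0.970), with a 95% interval of -0.69 to 0.78 that leaves room for a difference in either direction. A stretch of 62 bases (1.24%) of the Gli1 exons is shared with exons of the antisense gene Arhgap9, which has 7360 counts over all libraries against 2277 for Gli1, and without a known strand setting reads of these genes cannot be told apart there. The antisense gene Gm47200, which is not among the counted genes, shares 265 bases (5.31%) of the Gli1 exons. The sign of the Gli1 difference turned under 6 of the 17 alternatives, among them upper-quartile scaling (-0.0092) and library size alone (-0.018).

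Gli2 (chromosome 1, 118834132 to 119053619, minus strand), a main activator that receives the signal from Smo, was weakly expressed, at 38 to 111 counts per library in the knockout and 12 to 74 in the wild type. Gli2 measured 0.867, 1.27 and 2.20 CPM in the knockout and 1.74, 1.42 and 0.255 CPM in the wild type. Wild-type replicate 3 lay far below the other libraries and the other values were intermixed. The difference on the log2 scale was 0.35 ± 0.65 (SE; interval -1.16 to 1.86; edgeR adjusted p = 0.865), and it was -0.12 without wild-type replicate 3 and -0.092 without knockout replicate 3.

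Gli3 (chromosome 13, 15463235 to 15730026, plus strand), the factor with the strongest repressor form, measured 6.77, 8.44 and 10.2 CPM in the knockout and 6.68, 6.15 and 3.68 CPM in the wild type. The groups did not overlap, but the lowest knockout library and the highest wild-type library were separated by less than 0.1 CPM. The means were 8.46 ± 1.70 CPM in the knockout and 5.50 ± 1.60 CPM in the wild type (SD, n = 3 each). Its log2 fold change was 0.62 ± 0.29 (SE; interval -0.050 to 1.29; edgeR adjusted p = 0.627), and it was 0.45 with the transcript length trend removed and 0.25 without either library numbered 3. Per length, the ratio of Gli3 to Gli1 was 0.488, 0.475 and 0.634 in the knockout libraries and 0.335, 0.350 and 0.423 in the wild-type libraries, again without overlap. No test was made of this ratio, which was chosen after the values were seen. The antisense gene Gm6556, with 140 counts over all libraries, shares 1.96% of the Gli3 exon bases. For Hhip such a share was 1.93%, with Gm27820, which is not among the counted genes.

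**Figure D2:**
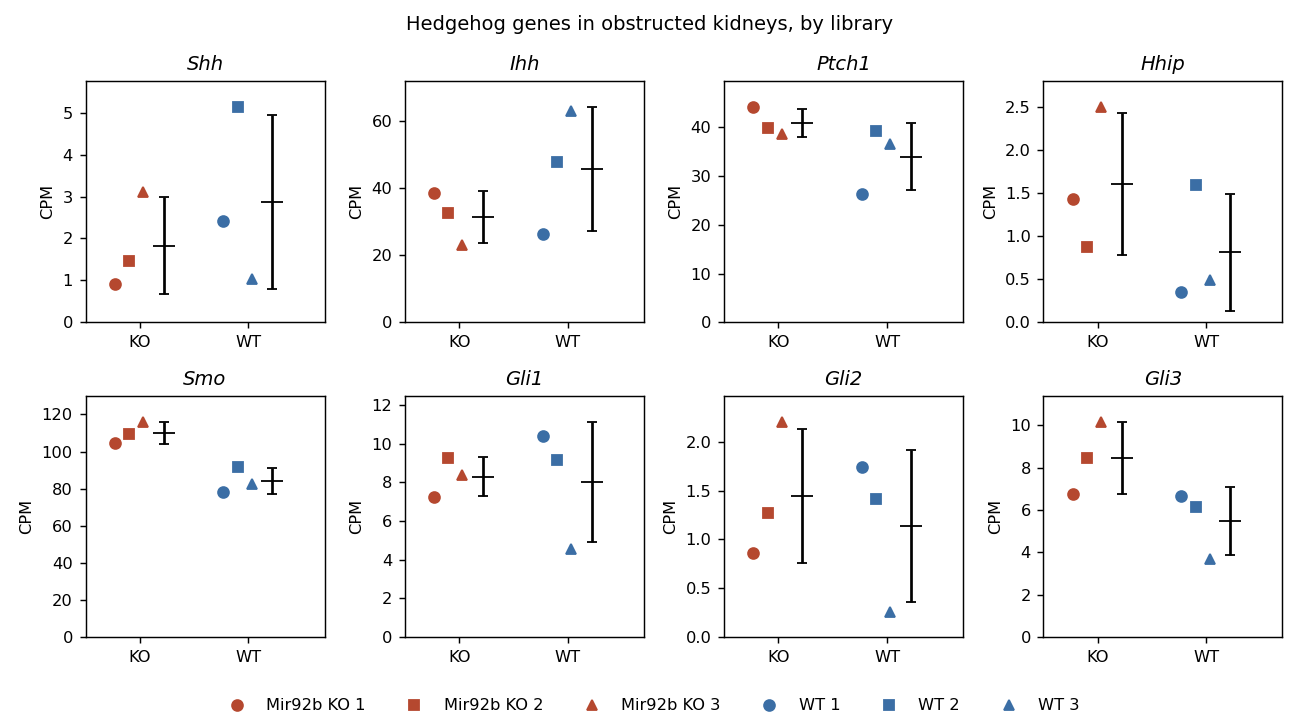
CPM of each Hedgehog gene in the knockout (red, left) and wild-type (blue, right) libraries, with the group mean and SD (n = 3) as a black bar. Only Smo and Gli3 show knockout points that all lie above the wild-type points.

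**Figure D3:**
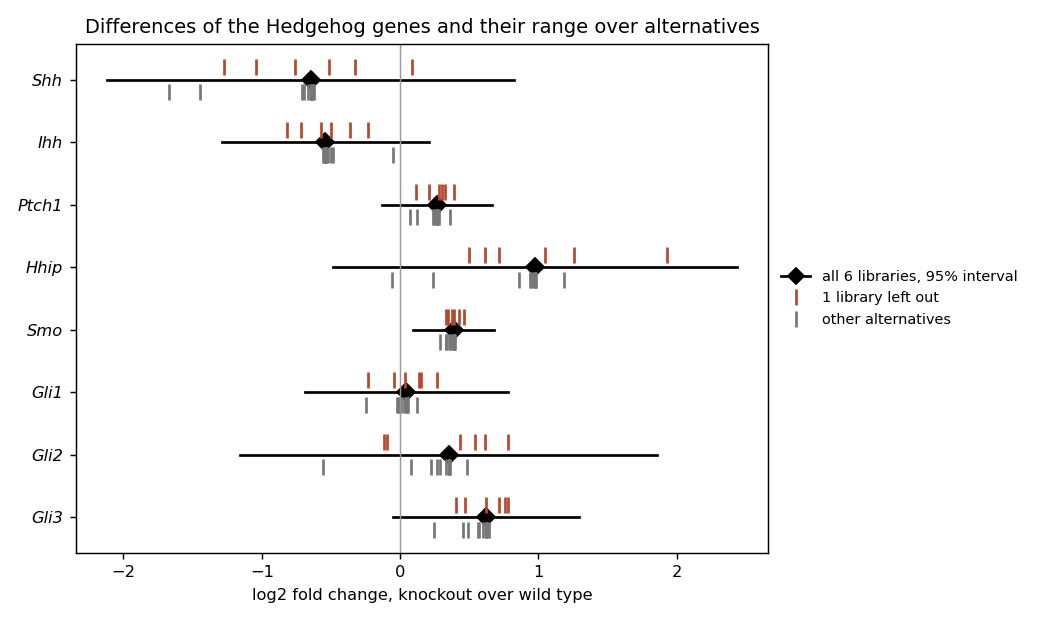
Log2 fold change, knockout over wild type, for each Hedgehog gene with all 6 libraries (diamond, 95% interval), with 1 library left out (red ticks) and under the other alternatives (grey ticks). The ticks of Ihh, Ptch1, Smo and Gli3 stay on one side of 0, whereas those of Shh, Hhip, Gli1 and Gli2 fall on both sides.

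The 8 genes did not vary together across libraries. Knockout replicate 3 was the highest library for 4 of them (Hhip, Smo, Gli2 and Gli3) and the lowest for Ihh. Wild-type replicate 3 was the lowest library for all 3 Gli genes and the highest for Ihh. Wild-type replicate 1 was the lowest for Ptch1, Hhip and Smo. The ratio of the highest to the lowest library was 8.64 for Gli2, 7.09 for Hhip and 5.63 for Shh, and 1.49 for Smo.

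Markers of other cell types moved with several of these values. The 11 fibroblast and myofibroblast markers summed to 2623, 4975 and 7706 CPM in the knockout libraries and to 4362, 2736 and 1982 CPM in the wild-type libraries. Knockout replicate 3 had the highest and wild-type replicate 3 the lowest sum, and the same libraries held the highest and lowest values of Gli2 and of Gli3. Gli1 also was lowest in wild-type replicate 3, but was highest in wild-type replicate 1. The 5 smooth muscle markers summed to 203, 272 and 286 CPM in the knockout and 310, 234 and 196 CPM in the wild type. Their highest and lowest libraries were those of Gli1. Endothelium (7 markers) and pericyte (6 markers) sums were also highest in knockout replicate 3, at 896 and 464 CPM. They were lowest in knockout replicate 1, at 330 and 261 CPM. Macrophage markers (7 genes) summed to 1450 to 1720 CPM in the knockout and 1144 to 1294 CPM in the wild type, without overlap, as for Smo and Gli3. Lyz2 made up 54.2% of these sums. Without it the other 6 summed to 665, 744 and 687 CPM in the knockout and to 576, 608 and 636 CPM in the wild type. Gene by gene, the knockout libraries lay above every wild-type library for 3 of the 7, beside 8.95% of all tested genes. The part of these cell types in the differences of the Gli genes and Smo was not tested.

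For the ligands, the 6 proximal tubule markers summed to 1924, 1306 and 677 CPM in the knockout and to 1186, 1160 and 2217 CPM in the wild type, with the same highest and lowest libraries as Ihh. Between those extremes the order differed. Wild-type replicate 2 had a lower sum than knockout replicate 1 (1160 against 1924 CPM) but more Ihh (47.8 against 38.6 CPM). The 11 collecting duct markers summed to 1136, 936 and 671 CPM in the knockout and to 779, 1150 and 1024 CPM in the wild type, again lowest in knockout replicate 3. Tfcp2l1, a transcription factor that made up 57.5% of these sums, was the only one of the 11 with a log2 fold change above 0 (0.16). Without it the other 10 markers summed to 438, 358 and 216 CPM in the knockout and to 387, 520 and 503 CPM in the wild type. The median of the 11 was -0.31, 0 passed the adjusted threshold, and the knockout libraries lay below every wild-type library for 4 (the water channels Aqp2 and Aqp4, the transcription factor Elf5 and the sodium pump regulator Fxyd4), beside 7.2% of all tested genes. Both ligands also had fold changes below 0. Within the knockout, Shh (0.912, 1.46 and 3.12 CPM in replicates 1 to 3) rose as the collecting duct sums fell. Within the wild type, Shh and these sums were both highest in replicate 2. The part of the collecting duct in the ligand values was not tested. The 8 markers of urothelium, the lining of the renal pelvis, summed to 159, 253 and 243 CPM in the knockout and to 168, 367 and 159 CPM in the wild type. Wild-type replicate 2, the highest of these sums, also held the highest Shh. All 8 urothelial markers were detected, and how much of the pelvis each kidney sample contained was not tested. The pairs of gene and marker list were chosen after the values were seen.

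**Figure D4:**
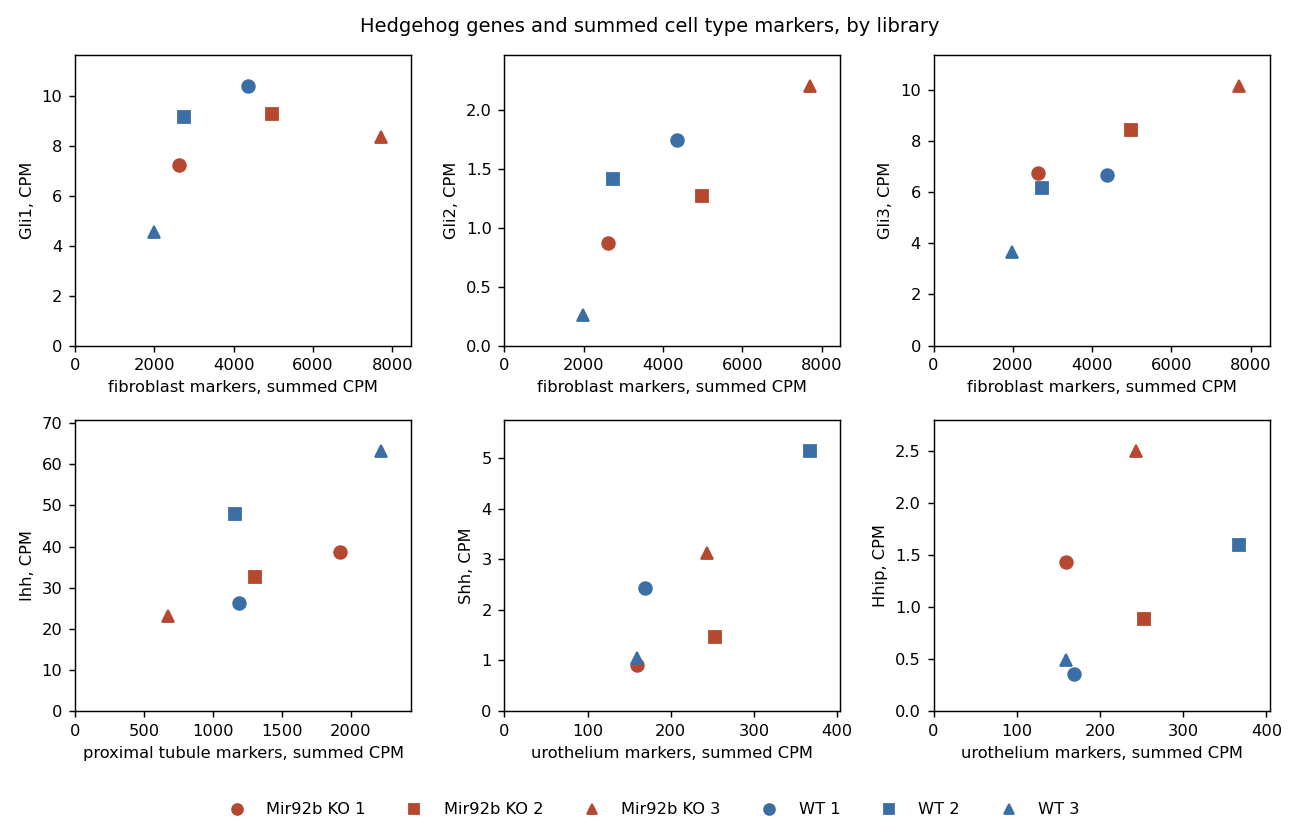
CPM of a Hedgehog gene (vertical axes) against the summed CPM of a marker list (horizontal axes) in each of the 6 libraries, knockout in red and wild type in blue. Gli2 and Gli3 are lowest and highest in the libraries with the lowest and highest fibroblast sums, and Shh is highest in the library with the highest urothelium sum.

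The genes whose pattern over the 6 libraries was closest to Gli1, by root mean square difference of log2 CPM centred on each gene's mean, were Plekha4 (0.0681), Tcf7l1 (0.0866), a transcription factor of the Wnt pathway, and Kcnip3 (0.0873). Plekha4 was at 11.5, 14.2 and 12.6 CPM in the knockout and 15.1, 13.1 and 7.40 CPM in the wild type, with the same highest and lowest libraries as Gli1. Gli2 and Hhip varied most of the other 7 and had less close neighbours. For Gli2 they were Postn (0.251), a matrix protein of activated fibroblasts, the noncoding Mir100hg (0.366) and Mfap5 (0.375), a microfibril protein. Postn measured 39.3, 68.1 and 141 CPM in the knockout and 71.5, 57.1 and 16.4 CPM in the wild type, the order of the libraries being that of Gli2 except for a pair of neighbours. For Hhip they were Steap4 (0.32), Pcdhgb2 (0.333), a protocadherin whose exons are shared with its gene cluster so that its counts are uncertain, and Upk3b (0.461), a uroplakin gene.

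Other genes of the pathway were described in 3 lists. Of 20 other Hedgehog genes, all tested, 0 passed the adjusted threshold in either direction. Of these, 16 had a log2 fold change over 0 and the median was 0.27, whereas 47.7% of all genes tested were above 0, with a median of -0.018. An unadjusted edgeR p under 0.05 was held by 0 of the 20, beside 4.38% of all tested genes on the higher side and 3.52% on the lower side. Marker lists outside the pathway also had medians above 0 (fibroblast 0.77, endothelium 0.40) or below 0 (collecting duct -0.31, proximal tubule -0.24). For the 20 genes, removing the transcript length trend gave a median of 0.15 and limma-voom with quality weights gave 0.145. Leaving out both libraries numbered 3 gave 0.13. On the ligand side 5 of 6 genes lay above 0, as did 7 of 10 regulators of Smo and Gli. All 4 receptors and coreceptors lay above 0, with a median of 0.34. The smallest p among the 20 belonged to Sufu, the cytoplasmic inhibitor of Gli proteins, at 59.9 ± 1.35 CPM in the knockout and 47.9 ± 8.23 CPM in the wild type (SD, n = 3 each). Its log2 fold change was 0.32 ± 0.15 (SE; edgeR adjusted p = 0.627). The knockout libraries lay above every wild-type library for 2 of the 20, Sufu among them, beside 8.95% of all tested genes. Hhat, the enzyme that attaches palmitate to the ligands, stood at 0.52 ± 0.25 and Cdon, a coreceptor, at 0.32 ± 0.16 (edgeR adjusted p = 0.627 for each).

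The 12 genes of the cilium machinery were divided evenly about 0, with 6 above and 6 below, a median of 0.0040 and 0 past the threshold. That median turned to -0.029 with library size alone, -0.034 with upper-quartile scaling, -0.010 with the filter of 1 CPM in 3 libraries and -0.076 with the length trend removed. Ift88, a subunit of the intraflagellar transport complex, was lowest of the 12 at -0.20 ± 0.12 (SE). It was at 28.9 ± 1.24 CPM in the knockout and 33.1 ± 1.86 CPM in the wild type. The knockout libraries lay below every wild-type library for 1 of the 12, Ift88, beside 7.2% of all tested genes. Wdr19 and Arl13b, also ciliary genes, stood at 0.18 ± 0.16 and 0.11 ± 0.13. Their edgeR adjusted p-values were 0.655, 0.730 and 0.795.

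Of 13 genes reported as Gli targets in various tissues, 12 were expressed enough to be tested and 0 passed, with 7 above 0 and a median of 0.26. Without either library numbered 3 the median was 0.045, and with limma-voom and quality weights it was 0.11. Over all tested genes, 4.38% had an unadjusted edgeR p under 0.05 on the higher side and 3.52% on the lower side. Of the 12, only Bmp4, a ligand of the BMP pathway, had such a p, on the lower side (adjusted p = 0.627). It was at 55.2 ± 3.04 CPM in the knockout and 67.2 ± 3.68 CPM in the wild type (SD, n = 3 each). Its log2 fold change was -0.28 ± 0.12 (SE), and every knockout library lay below every wild-type library, as for 7.2% of all tested genes. On the opposite side Bcl2, an inhibitor of apoptosis, was at 0.30 ± 0.14 without overlap, as for 8.95% of all tested genes. Cdk6, a cell cycle kinase, was at 0.25 ± 0.15 (edgeR adjusted p = 0.627 for Bcl2 and 0.649 for Cdk6). Several of these genes, such as Ccnd1, Bcl2 and Snai1, are also known targets of other pathways.

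**Figure D5:**
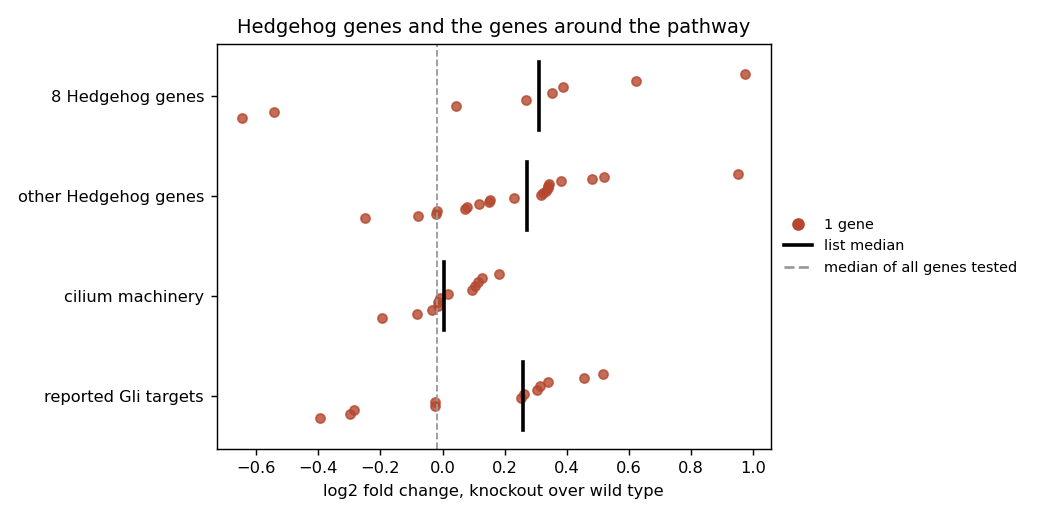
Log2 fold change (knockout over wild type) for each tested gene in the 8 Hedgehog genes and in 3 lists around the pathway, with the list median (black) and the median of all genes tested (dashed). The medians of 0.27 for the other Hedgehog genes and 0.26 for the reported targets lie right of the dashed line, and that of the cilium machinery lies near it.

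A search for the Gli binding motif GACCACCCA and its reverse complement TGGGTGGTC in promoter windows from RefSeq (GRCm38.p6; 250 bases before to 50 after a gene's start) found it in 0 of the 6 windows searched, those of Ihh, Ptch1, Smo, Gli2, Gli3 and Hhip. The motif was in 0.253% of all 32851 windows. With so low a share, finding it in 0 of 6 does not set these genes apart from others. Shh and Gli1 had no window and were not searched. Sites elsewhere in these genes were not searched.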

How the data were processed

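The deposited table holds raw read counts, whole numbers without normalisation, with gene symbols as rows and a column for each library. The submitters' processing notes name GRCm38 and mm10, which are the same build. The aligner, counter and strand setting were not given in the sources used here, so overlapping antisense genes may share reads. Knockout columns carry the parts of the library name in another order and were matched by parts and number.

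Genes were filtered with filterByExpr (18927 of 34714 kept, with 99.96% of counts), scaled by TMM and compared with edgeR 4.0.16 in R 4.3.3 (quasi-likelihood F test, robust fitting, group as the only term), with Benjamini-Hochberg adjustment over all tested genes and a threshold of 0.05. The code was tested on simulated counts. Standard errors are the log2 fold change over the root of F. The biological coefficient of variation was 26.9%, which with 3 libraries per group limits what small differences can show. CPM per kb used the union of GENCODE M21 exons. Log2 CPM used a prior count of 2. Of the same-numbered libraries of the 2 groups, only those numbered 2 deviated together (across-gene r of -0.28, 0.18 and -0.29 for numbers 1 to 3), so the numbers were not taken as pairs and no block was used. No library was a copy of another (chi-square per degree of freedom of at least 31.1 for every pair).

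Members, lists and tests were chosen with earlier results of these data known. Named genes are the 8 members, the 3 smallest p-values of each pathway list and, for Gli1 and the 2 most variable other members, the 3 closest genes of at least 5 CPM, predicted genes left out. Alternatives were other scalings, DESeq2 1.42.0, limma-voom (limma 3.58.1), other filters, robust fitting off, a length correction, a replicate block and libraries left out.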

Additional observations from a re-analysis of the deposited data

How the results depend on the processing

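None of the 8 Hedgehog genes, and none of the genes of the 3 lists around them, passed the adjusted threshold under any of the 17 alternatives run. The number of genes called over the whole table was 0 with edgeR and all libraries, 0 at a threshold of 0.01, 62 with DESeq2 (34 higher and 28 lower), 3 with limma-voom, 2 with no filter, 1 with the replicate block, 1 with replicate 3 of both groups left out, and 0 to 1 when a single library was left out. The replicate block changed no call among the 8 genes. The log2 fold changes of Ihh, Ptch1, Smo and Gli3 kept their sign under all 17 alternatives. That of Gli1 turned to -0.0092 with upper-quartile factors, -0.018 with library size alone, -0.021 with the length trend removed, -0.24 with replicate 3 of both groups left out, -0.047 without knockout replicate 2 and -0.24 without wild-type replicate 3. Gli2 turned to -0.56 with replicate 3 of both groups left out, -0.092 without knockout replicate 3 and -0.12 without wild-type replicate 3. Hhip turned to -0.058 with limma-voom, and Shh to 0.086 without wild-type replicate 2. Leaving out single libraries, the values ran from -0.24 to 0.27 for Gli1, -0.12 to 0.78 for Gli2, 0.49 to 1.93 for Hhip and -1.28 to 0.086 for Shh. Per kb of the longest transcript in place of all exons, Smo stood at 25.7 and Ptch1 at 3.61 CPM per kb, further from their main levels than the SD over libraries. The cause of the turns was not tested. Gli2 and Hhip had 12 to 126 counts per library, while Gli1, which turned under 6 alternatives, had 213 to 453. The part of counting error in these spreads was not tested.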
